A study of Mus musculus with 11 samples.

Results

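The regions described here are stretches of chromatin acetylated on lysine 27 of histone H3 (H3K27ac) that were called in every H3K27ac library, carried no call of the cohesin subunit Smc1a and lay close to another such shared stretch. Peaks of the 4 H3K27ac libraries that touched or overlapped were merged into 24430 union regions, of which 12129 held a peak of all 4 libraries. The 3032 members were selected on the calls themselves: a peak in all 4 H3K27ac lists, a length under 10000 bp, no overlap with a peak of either Smc1a list, and another region called in all 4 lists within 12500 bp. They made up 12.4% of the union regions and 40.8% of the 7436 shared regions that were under 10000 bp and free of Smc1a. Presence of a call in every library, absence of Smc1a and closeness of a neighbour are therefore given by the choice of members and are no results.

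Chromatin immunoprecipitation and sequencing had been done on sorted CD4+ CD8+ thymocytes, the stage of T cell development at which both coreceptors are on the cell surface, from mice aged 6 weeks. The wild-type (WT) group had 2 H3K27ac libraries, and the Rad21 -/- group (KO), in which a floxed Rad21 allele was removed by Cre under the control of Cd4, also had 2. Control and deleted animals were littermates, and Smc1a was mapped in 2 WT libraries and in no KO library. Nothing in the labels tells whether 2 libraries of 1 group are from different animals, so every p below measures the spread between these samples, which may be technical. Cre driven by Cd4 becomes active in the thymocyte series itself, and the lists give no measure of how much Rad21 was left in the sorted cells. The files hold peak coordinates on the mouse build mm9 and no annotation of that build was used, so the regions are given by position, without genes, exons or introns, and the cell type could not be checked against marker genes.

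H3K27ac is found at active promoters and enhancers, and active elements are often grouped within short distances along the chromosome. Cohesin is a ring-shaped complex built from Smc1a, Smc3 and the Rad21 subunit that closes the ring, and it forms chromatin loops by extrusion until it is stopped, often at sites bound by Ctcf. Loops bring some enhancers and promoters together, and Smc1a peaks mark where the complex is held.

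The H3K27ac lists held 15686 to 21973 peaks with median widths of 1852 to 2164 bp, and the Smc1a lists held 25484 and 17726 peaks with median widths of 684 and 667 bp. Depth was unknown because the lists hold no reads. No 2 libraries of the same target shared an identical peak. The library with the fewest peaks, WT replicate 2, was also the H3K27ac library with the lowest covered length (45.6 Mb, against 56.3 Mb in WT replicate 1, 52.7 Mb in KO replicate 1 and 47.6 Mb in KO replicate 2).

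Members were of intermediate length. Their union regions had a median of 2812 bp (quartiles 2142 and 3870 bp, range 370 to 9996 bp). The 4404 cohesin-free shared regions without a neighbour in reach, called lone regions below, had a median of 2496 bp, and the 2351 Smc1a-bound regions under 10000 bp with a neighbour in reach had a median of 3850 bp. In the median member 70.4% of the union region was under a peak in all 4 libraries at once, against 74.6% in lone regions. In 15 members no base was called in all 4 libraries together, so these were shared only as merged regions. These lengths and shares are descriptions without a test.

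Regions on either side of the limits are given as a description. The 2 longest members had lengths of 9996 bp (chr1:182282264-182292259) and 9957 bp (chr11:98797969-98807925), and the shortest of the regions just past the limit had 10045 and 10070 bp. The members with the most distant neighbours had gaps of 12496 bp (chr19:5271553-5275098) and 12476 bp (chr13:13697670-13704651), and the regions next beyond that limit had gaps of 12504 and 12509 bp. Covered length is the number of bases of a region under a library's peaks. It was 9554 and 8825 bp (WT) against 9529 and 8704 bp (KO) for the longest member. For the other long member it was 9623 and 9674 bp (WT) against 9791 and 9835 bp (KO). Of the regions just past the limit, the shorter was covered over 9616 and 9996 bp in WT libraries and 9152 and 9239 bp in KO libraries, and the longer over 9841 and 9139 bp against 5936 and 6054 bp. That last region had a log2 difference of -0.63, while the 2 longest members were at 0.015 and 0.051. Covered length was 3104 and 1789 bp (WT) against 1784 and 3078 bp (KO) for the member with the most distant neighbour. For the member at a gap of 12476 bp it was 6194 and 6294 bp (WT) against 4784 and 5021 bp (KO). The regions next beyond that limit were covered over 3041 and 2468 bp (WT) against 3347 and 3199 bp (KO), and over 2015 and 1692 bp against 2132 and 2239 bp.

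Members sat in small groups. Of the 3032, 2048 (67.5%) had 1 shared region within 12500 bp, 740 had 2, 208 had 3, 29 had 4 and 7 had 5. The nearest neighbour was another member for 1858 (61.3%), a Smc1a-bound region under 10000 bp for 1024 (33.8%) and a region of 10000 bp or longer for 150 (4.95%), of which 132 overlapped a Smc1a peak. The gap to the nearest neighbour had a median of 3490 bp (quartiles 993 and 6881 bp, range 1 to 12496 bp), and 202 members (6.66%) were parted from it by at most 100 bp. A gap of that size is a break between calls, and whether the acetylation itself is broken there cannot be read from peak lists.

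Smc1a was near many members without touching them. The nearest Smc1a peak of either list was a median of 7694.5 bp from a member and 16454.5 bp from a lone region, and 59.7% of members against 33.1% of lone regions had one within 10000 bp. Closeness to Smc1a follows in part from the rule, since 1399 members (46.1%) had at least 1 Smc1a-bound shared region within 12500 bp and lone regions had none by definition. Against Smc1a replicate 1 alone the median distance from members was 8516.0 bp, and against replicate 2, which has fewer peaks, it was 12646.5 bp. In the gap that parted a member from its nearest neighbour a Smc1a peak was called for 276 members (9.10%). These gaps were long, with a median of 7474.0 bp against 2937.5 bp for the other members.

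By chromosome, members were the greatest share of shared regions on chromosome 17 (191 of 607, 31.5%) and chromosome 11 (287 of 975, 29.4%). The smallest shares were on chromosome 13 (88 of 540, 16.3%) and the X chromosome (60 of 325, 18.5%). These shares were not tested.

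The length of members under called peaks differed between the genotypes by less than between the KO libraries. Summed over all members it was 8.57 Mb in WT replicate 1, 8.17 Mb in WT replicate 2, 8.42 Mb in KO replicate 1 and 7.45 Mb in KO replicate 2. KO replicate 2 was the lowest, and KO replicate 1 lay between the WT libraries, so the groups overlapped. The means were 8.37 ± 0.279 Mb in WT and 7.94 ± 0.690 Mb in KO (SD, n = 2 each), a KO minus WT difference of -0.436 Mb (two-sided exact permutation test over libraries, p = 0.667). The smallest p that 2 against 2 libraries allow is 0.333, so no such test could pass 0.05. Without KO replicate 2 the difference was 0.0521 Mb, with the opposite sign. As a share of everything a library called, members took 15.2% and 17.9% in WT and 16.0% and 15.7% in KO.

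The number of peaks into which the caller cut the members overlapped between the genotypes too. Members reported as 2 or more peaks were 5.84% and 5.21% in the WT libraries and 5.08% and 7.42% in the KO libraries, and both the lowest and the highest share were in KO (difference 0.726 percentage points, exact permutation test, p = 1). Without KO replicate 2 the difference was -0.445 points. The peaks of members ranked in the middle to upper part of their lists. By the authors' peak score, the best peak of the median member stood at the percentile 65.2 of its list in WT replicate 1, 52.9 in WT replicate 2, 60.1 in KO replicate 1 and 59.9 in KO replicate 2. Smc1a-bound regions with neighbours stood higher in the same lists, at 77.8, 73.8, 74.8 and 74.2. Many peaks are tied near 3100 in score, and 5.61%, 1.75%, 3.53% and 4.45% of members reached it in the same order of libraries, against 18.3%, 10.5%, 14.0% and 14.9% of the Smc1a-bound regions. In both measures WT replicate 2 was lowest for members and the KO libraries lay between the WT libraries.

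Region by region, none of the members passed the test for a difference in covered length. Log2 covered length was centred on each library's median over the 12129 shared regions (11.30 and 11.25 in WT, 11.32 and 11.17 in KO) and compared with limma over all of them with Benjamini-Hochberg adjustment. At an adjusted p of 0.05, 0 members were called lower in KO (0% of all shared regions) and 0 were called higher (0% of all shared regions), and the smallest adjusted p of a member was 0.150. At an unadjusted p of 0.05, 192 members (6.33%) were lower in KO and 90 (2.97%) were higher, against 5.8% and 3.53% of all shared regions. These shares were near those over all shared regions. Without KO replicate 1 the members at an unadjusted p of 0.05 and lower in KO numbered 329, 10.9% against 8.81% of all shared regions. Without WT replicate 1 those higher in KO numbered 140, 4.62% against 4.43%. Without WT replicate 1 the same fit called 18 members and without WT replicate 2 it also called 18 (0.594% of members each time, against 0.528% and 0.536% of all shared regions), of which 8 were common to both, with the lone WT library assumed to vary like the KO libraries.

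The median absolute log2 difference in centred covered length was 0.155 between the WT libraries, 0.187 between the KO libraries and 0.151 between the genotype means. The last of these averages 2 libraries on each side, so it has less error than the others and is not on the same footing. In 682 members (22.5%) both WT libraries lay above both KO libraries after centring, against 21.2% of all shared regions. In 535 members (17.6%) both KO libraries lay above both WT libraries, against 19% of all shared regions. Without centring the counts were 696 (23.0%) and 467 (15.4%), against 22.9% and 17.4% of all shared regions. As a class the members thus stood close to the background in either direction, while lone regions had 13.1% and 25.1%, and Smc1a-bound regions with neighbours had 29.6% and 12.8%, for WT above KO and KO above WT respectively. Smc1a-bound regions standing alone, at 21.4% and 17.8%, were also close to the background, so this position was not particular to members.

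To place the members between these classes, each region's centred log2 covered length was taken relative to its own mean over the 4 libraries, and the median over a class was read in each library. For members these medians were 0.0073 in WT replicate 1, 0.0144 in WT replicate 2, -0.0128 in KO replicate 1 and 0.0033 in KO replicate 2. Both WT values were above both KO values, and the KO minus WT difference was -0.016 (log2), which is a change of -1.07% in covered length (n = 2 each, exact permutation test, p = 0.333). For lone regions the difference was 0.049, with both KO libraries higher, and for Smc1a-bound regions with neighbours it was -0.061, with both KO libraries lower. These orders are those after centring. Uncentred, lone regions summed to 10.7 and 10.3 Mb in WT and 11.0 and 10.2 Mb in KO, which overlap. Smc1a-bound regions with neighbours summed to 8.99 and 8.99 Mb in WT and 8.73 and 7.74 Mb in KO, which do not overlap.

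The change of members differed in sign from that of lone regions in these libraries. Members minus lone regions was 0.0384 and 0.0275 in the WT libraries and -0.0070 and -0.0558 in the KO libraries. The groups did not overlap, and the difference of -0.0643 (log2) is a change of -4.36% in covered length relative to lone regions (exact permutation test, p = 0.333). The KO libraries themselves were far apart, and without KO replicate 2 the difference was -0.0381. Against Smc1a-bound regions with neighbours, members minus bound regions was -0.0017 and -0.0428 in WT and 0.0241 and 0.0223 in KO. This difference was 0.0454 in the other direction (exact permutation test, p = 0.333) and 0.0184 without WT replicate 2. These were 2 of 5 such comparisons, each of which had the smallest p the design allows, 0.333, also after Benjamini-Hochberg adjustment.

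**Figure D1:**
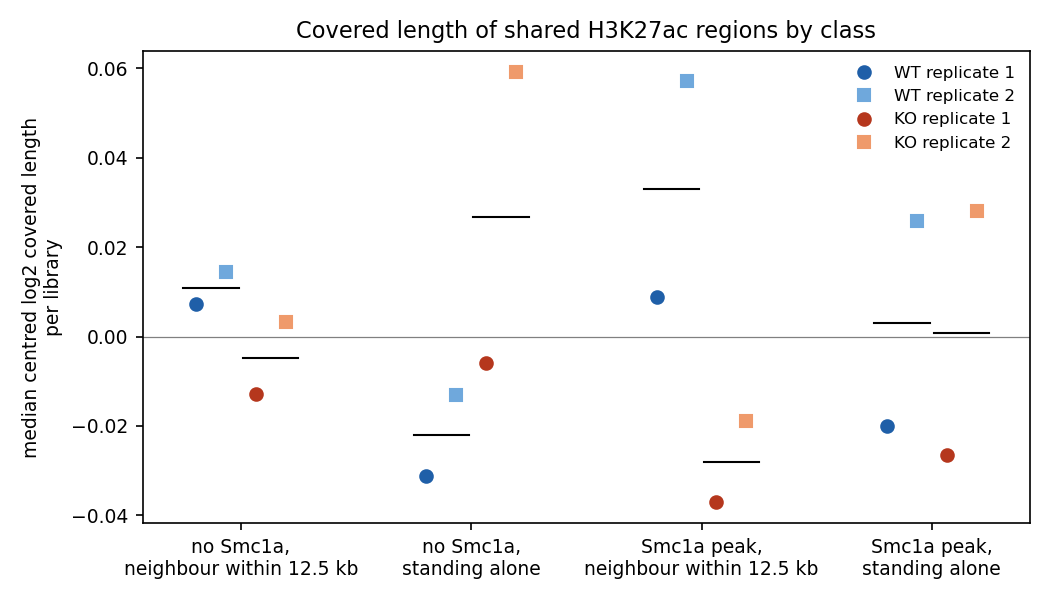
Median centred log2 covered length (vertical axis, no unit) of 4 classes of shared regions in each library, as points for the 2 WT and 2 KO libraries and lines for the genotype means. Members (leftmost, n = 3032) have both WT libraries above both KO libraries, lone cohesin-free regions (n = 4404) have the reverse order, and Smc1a-bound regions standing alone (n = 1777) overlap between genotypes.

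Members differed by the kind of neighbour they had. The 1399 members with at least 1 Smc1a-bound region in reach had medians of 0.0220 and 0.0393 in WT and -0.0220 and -0.0208 in KO. The genotypes had a clear gap between them, with a KO minus WT difference of -0.052 (a change of -3.55% in centred covered length). The 1633 members whose neighbours were all free of Smc1a had -0.0022 and -0.0112 in WT and -0.0023 and 0.0261 in KO, with overlapping genotypes and a difference of 0.019. The difference between these 2 kinds of member was 0.0243 and 0.0505 in WT and -0.0198 and -0.0469 in KO, a KO minus WT value of -0.0707 with no overlap of the groups (exact permutation test, p = 0.333). Both WT libraries lay above both KO libraries in 395 (28.2%) of the members with a Smc1a-bound neighbour and in 287 (17.6%) of those without, around the 21.2% of all shared regions. The reverse order held in 203 (14.5%) and 332 (20.3%), around the background of 19%.

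Members with a Smc1a-bound neighbour were also longer (median 3018.0 against 2663.0 bp) and closer to their nearest neighbour (2642.0 against 4024.0 bp). Compared within strata of length the difference was -0.0625, and among members with exactly 1 neighbour it was -0.0483, both in the same direction. The part of the gap in this pattern was not tested.

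The number of neighbours went with the same direction. Members with 1 neighbour had medians of -0.0008 and 0.0057 in WT and -0.0054 and 0.0151 in KO, with overlapping genotypes. The 740 members with 2 neighbours had 0.0271 and 0.0243 in WT and -0.0213 and -0.0049 in KO. Uncentred, their summed covered length was 2.15 and 2.04 Mb in WT and 2.07 and 1.83 Mb in KO, which overlap. The 244 members with 3 or more had 0.0430 and 0.0532 in WT and -0.0364 and -0.0465 in KO. Their KO minus WT difference was -0.090 (a change of -6.02% in centred covered length). Uncentred, these 244 summed to 0.813 and 0.797 Mb in WT and 0.760 and 0.662 Mb in KO, which do not overlap. In members with 3 or more neighbours 83 (34.0%) had both WT libraries above both KO libraries and 21 (8.61%) had the reverse, against 21.2% and 19% of all shared regions. Members with 3 or more neighbours minus members with 1 was 0.0439 and 0.0475 in WT and -0.0310 and -0.0616 in KO, a KO minus WT value of -0.0920 (exact permutation test, p = 0.333).

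Most members with 3 or more neighbours, 211 of 244, also had a Smc1a-bound neighbour, so members were cross-classified by the number and the kind of neighbour. Among members with a Smc1a-bound neighbour the KO minus WT difference was -0.028 with 1 neighbour (n = 729) and -0.070 with 2 (n = 459). With 3 or more (n = 211) the medians were 0.0564 and 0.0598 in WT and -0.0356 and -0.0599 in KO. Among members without one the difference was 0.020 with 1 neighbour (n = 1319) and 0.018 with 2 (n = 281), so it hardly moved. With 3 or more the medians of 33 members were 0.0291 and 0.0373 in WT and -0.0371 and 0.0360 in KO, which overlap. Members with 3 or more minus members with 1 gave -0.0778 with a Smc1a-bound neighbour and -0.0541 without one (exact permutation test, p = 0.333 each). The second value rests on those 33 members, so number and kind of neighbour were not fully separated. Smc1a-bound regions themselves ran from -0.053 with 1 neighbour (n = 1428) to -0.096 with 3 or more (n = 242).

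**Figure D2:**
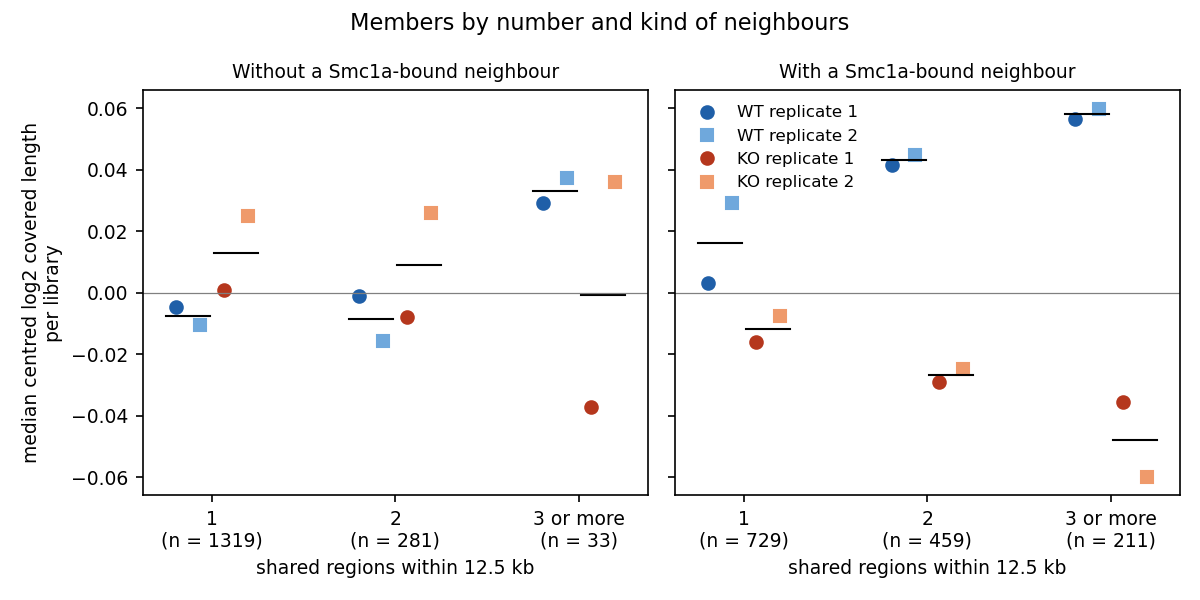
Median centred log2 covered length (vertical axis, no unit) of members without (left) and with (right) a Smc1a-bound neighbour, by the number of shared regions in reach, as points for the 2 WT and 2 KO libraries and lines for the genotype means. With a Smc1a-bound neighbour both WT libraries are above both KO libraries in each column, and the genotypes are widest apart for the 211 members with 3 or more neighbours.

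Smc1a between a member and its nearest neighbour gave the opposite sign. The 276 members with a Smc1a peak in that gap had medians of -0.0089 and -0.0095 in WT and 0.0109 and 0.0153 in KO, a difference of 0.022, with both KO libraries higher. That order holds after centring. Uncentred, their summed covered length was 0.754 and 0.709 Mb in WT and 0.761 and 0.662 Mb in KO, which overlap. The other 2756 members had 0.0091 and 0.0162 in WT and -0.0154 and 0.0020 in KO. The difference between them was 0.0416 (exact permutation test, p = 0.333), 0.0245 within strata of the gap length, 0.0234 without KO replicate 1, and 0.0153 when only Smc1a sites called in both replicates were used (exact permutation test, p = 0.667). Counts by region were small and near the background: 56 of the 276 (20.3%) had WT above KO, against 21.2% of all shared regions, and 63 (22.8%) had KO above WT, against 19%.

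Distance to the nearest Smc1a peak, wherever it lay, ordered the members as follows. The KO minus WT difference was -0.045 for 443 members with a peak within 2000 bp, -0.041 for 644 members at 2000 to 5000 bp, -0.018 for 723 at 5000 to 10000 bp and -0.013 for 656 at 10000 to 20000 bp. In each of these 4 bins both WT libraries were above both KO libraries after centring. Uncentred, summed covered length overlapped between the genotypes in each of the 4. Within 2000 bp it was 1.30 and 1.25 Mb in WT and 1.27 and 1.10 Mb in KO. For the 566 members farther than 20000 bp it was 0.032, with medians of -0.0267 and -0.0027 in WT and -0.0087 and 0.0438 in KO, which overlap. Lone regions in the same 5 bins had positive differences throughout, from 0.031 to 0.056. Bins were not tested against each other. Nor were they separated from the kind and number of neighbours, and lone regions have no Smc1a-bound neighbour by definition. The median gap of members to the nearest neighbour was 1212.0 bp in the nearest bin and 4101.0 bp in the farthest.

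The width of the gap itself showed no such order. The KO minus WT difference was -0.013 for the 556 members with a gap up to 500 bp, -0.028 for 571 with 500 to 2000 bp, -0.021 for 751 with 2000 to 5000 bp and -0.0063 for 1154 with more. In the narrowest and the widest of these groups the genotypes overlapped. The ends of members left uncalled were compared between the side of the neighbour and the far side. The stretch of union region beyond a library's outermost called base was on average 184.3 and 251.1 bp on the facing edge in WT and 216.8 and 362.1 bp in KO, and 187.1 and 247.5 bp against 203.5 and 360.3 bp on the far edge. Facing minus far edge was -2.81 and 3.57 bp in the WT libraries and 13.3 and 1.79 bp in the KO libraries (exact permutation test, p = 0.667), and KO replicate 2 had the longest uncalled stretch on both edges. This average joins gap widths of opposite sign, 2 of which had the same sign in all 4 libraries. For gaps up to 500 bp the facing edge had the shorter uncalled stretch, with facing minus far of -37.0 and -66.4 bp in the WT libraries and -24.0 and -73.8 bp in the KO libraries. A call reaching across so narrow a gap would have merged the regions, so the facing edge is bounded by the rule. The part of the merging in this sign was not tested. For gaps of 2000 to 5000 bp the facing edge had the longer uncalled stretch, with 38.1 and 29.5 bp against 39.1 and 51.8 bp. The genotypes overlapped in the narrow gaps (exact permutation test, p = 1), and in the wider ones both KO libraries were higher (exact permutation test, p = 0.333).

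Differences between the genotypes were alike in adjacent members, with the higher r at the narrower gaps. Over 1100 pairs of adjacent members, Pearson's r of the KO minus WT log2 difference of the one with that of the other was 0.349. By gap it was 0.495 for 177 pairs up to 500 bp apart, 0.427 for 175 pairs at 500 to 2000 bp, 0.309 for 268 pairs at 2000 to 5000 bp and 0.246 for 480 pairs farther apart. Both regions of a pair come from the same 4 libraries and pairs in a run share regions, so these values describe the libraries and carry no p. Differences within a genotype were also alike between adjacent members, but less so: r was 0.155 and 0.272 up to 500 bp apart and 0.0930 and 0.0190 in the widest bin for WT replicate 1 minus 2 and KO replicate 1 minus 2. A genotype difference averages 2 libraries on each side and a replicate difference none, so the precision of the 2 kinds of r is not the same.

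Over all adjacent shared regions, members included, r of the KO minus WT difference did not go up towards the narrowest gaps: it was 0.332, 0.344, 0.342 and 0.299 in the same 4 bins, from narrow to wide. Farther apart it was 0.208 for 1467 pairs from 12500 to 25000 bp apart, 0.163 for 3440 pairs up to 100000 bp and 0.0550 for 3586 pairs beyond. Among the pairs of adjacent members 74 had WT above KO without overlap in both regions, 66 had KO above WT in both and 47 had opposite orders, which are 6.73%, 6.00% and 4.27% of the 1100 pairs. Of all 3616 pairs of adjacent shared regions within 12500 bp the counts were 433, 149 and 141, which are 11.97%, 4.12% and 3.90%. The share with WT above KO in both regions was thus lower among pairs of members, and the shares of the other orders were higher. The shares were not compared by a test.

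**Figure D3:**
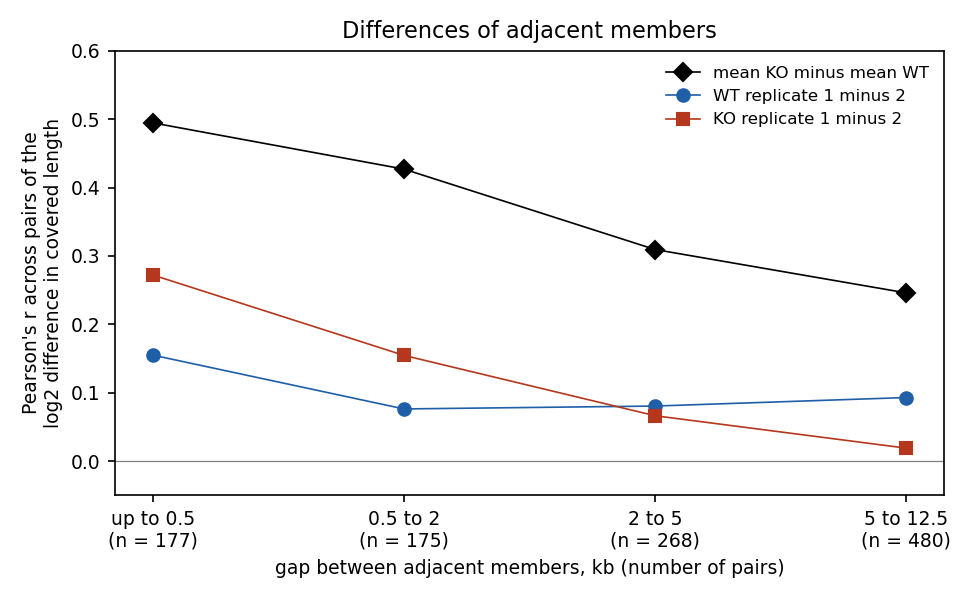
Pearson's r (vertical axis) between adjacent members of the log2 difference in covered length, by the gap between them in kb (horizontal axis, number of pairs in brackets), for the mean KO minus mean WT difference and for replicate 1 minus 2 within each genotype. The genotype difference goes from 0.495 in the narrowest to 0.246 in the widest gaps and lies above both replicate differences in every bin.

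Consecutive members with no other shared region between them formed 1932 runs: 1035 members stood alone among other classes, 727 runs had 2 members, 139 had 3, 29 had 4 and 2 had 5. The 170 runs of 3 or more held 543 members. The 5 with the most members, ties ordered by covered length, are given with their covered length summed over members.

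The first, chr8:73032446-73079896, had 5 members of 2234 to 5476 bp. They held 15442 and 13219 called bp (WT) against 15256 and 12564 bp (KO). The genotypes overlapped, no member of the run had WT and KO libraries apart in either direction, and 2 Smc1a peaks lay between its members. These peaks were called in Smc1a replicate 1 and not in replicate 2. The second, chr19:8944973-8973956, had 5 short members of 1671 to 2550 bp. It held 10577 and 9983 called bp (WT) against 9599 and 9303 bp (KO), with 1 member where WT lay above KO, and the nearest Smc1a peak was 7742 bp away. The third, chr4:135641783-135669304, had 4 members covered over 17845 and 20173 bp (WT) against 19697 and 19104 bp (KO), which overlap.

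The fourth, chr2:26347649-26372716, was the most variable of these runs. Its 4 members were covered over 19674 and 15229 bp (WT) against 10858 and 16675 bp (KO). KO replicate 1 was the lowest and KO replicate 2 lay between the WT libraries. In 2 of the 4 members both WT libraries lay above both KO libraries, and in none the reverse. The nearest Smc1a peak was 41839 bp away, the log2 differences of its members ran from -0.66 to -0.13, and the smallest unadjusted limma p was 0.166. The fifth, chr2:33722624-33744041, had 4 members covered over 16108 and 15470 bp (WT) against 15948 and 14881 bp (KO), with 1 member where WT lay above KO and 1 with an unadjusted limma p of 0.0203. In 4 of these 5 runs no Smc1a peak lay inside the span.

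**Figure D4:**
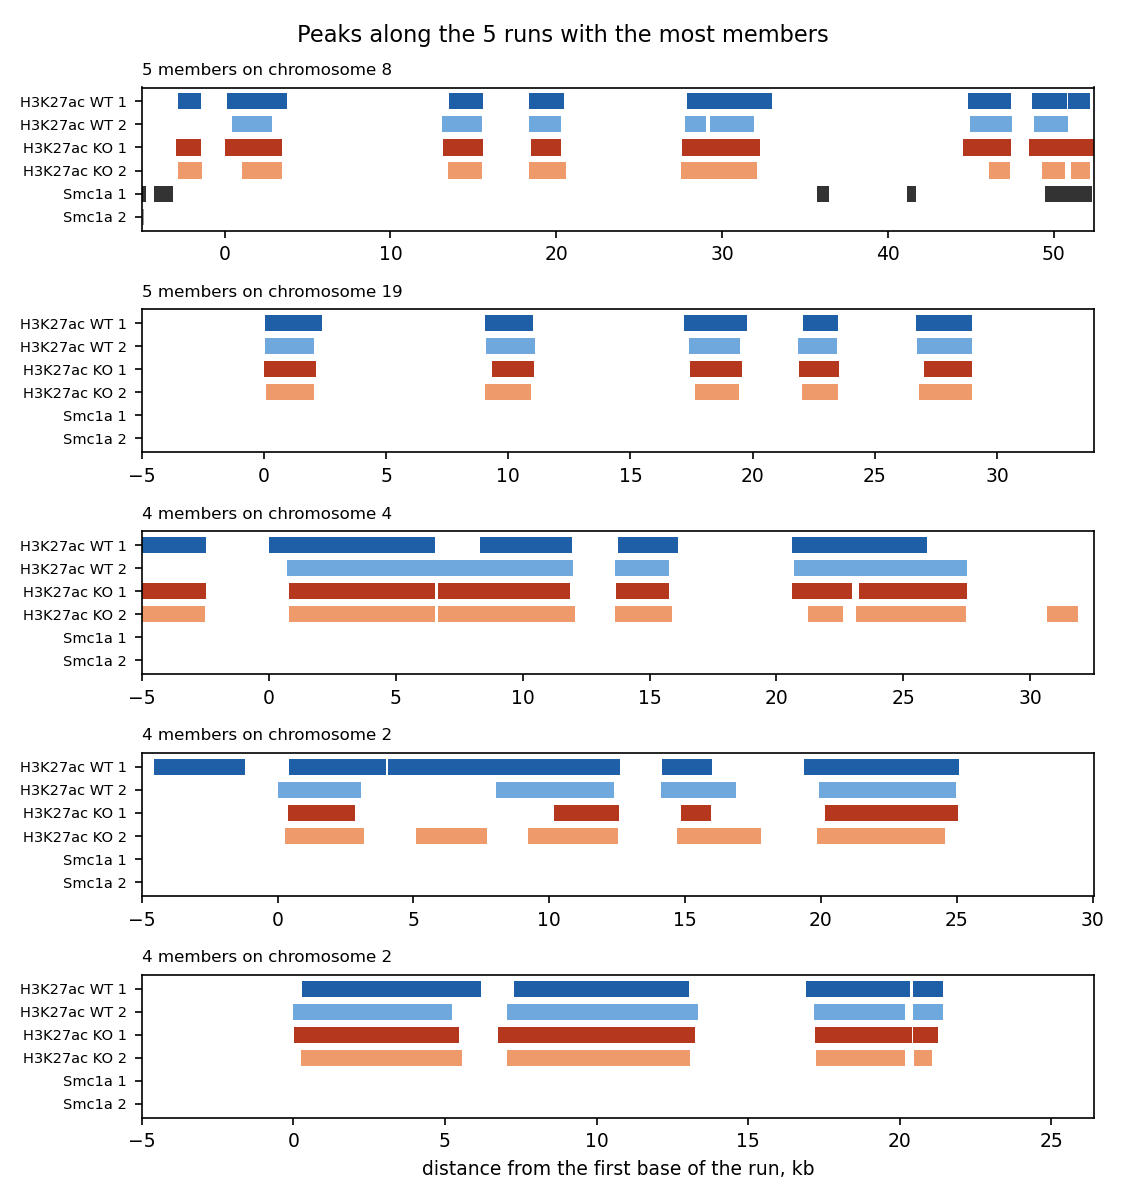
Peaks of the 4 H3K27ac and 2 Smc1a libraries along the 5 runs with the most members, by distance in kb from the first base of the run (horizontal axis), each bar being 1 deposited peak. Smc1a peaks lie between members in the first run only, where they are from Smc1a replicate 1 alone. The fourth run shows the shorter calls of KO replicate 1.

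No member passed the adjusted threshold, so the members with the smallest p in each direction are named as a description of the extremes. The 6 with less covered length in KO began with chr16:92709556-92714575. It held 4966 and 4955 called bp (WT) against 1943 and 1524 bp (KO), a log2 difference of -1.50 (SE 0.13) or 2.83-fold less (limma with Benjamini-Hochberg adjustment, adjusted p = 0.150). The WT libraries were nearly equal and both KO libraries lay far below. A Smc1a peak stood 39 bp from this member and its Smc1a-bound neighbour 137 bp away, whose own log2 difference was -0.29.

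The greatest difference among the 6 was at chr5:136997644-137005414, covered over 7170 and 6709 bp (WT) against 1584 and 852 bp (KO), a log2 difference of -2.55 (SE 0.26). This member of 7771 bp kept only a short call in each KO library. On the authors' scale, where the lists begin near 50, its best peak scored 422 and 107 in WT and 78.9 and 63.8 in KO. WT replicate 2 called the member as 3 peaks. Its nearest neighbour, 1492 bp away and also free of Smc1a, had a log2 difference of -1.42, and the nearest Smc1a peak was 20466 bp away. It was the only 1 of these 6 without a Smc1a-bound region in reach. Of all members 46.1% had such a region in reach.

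The other 4 were each lower in both KO libraries. The member at chr8:70250720-70253794 held 2984 and 3068 called bp (WT) against 1160 and 830 bp (KO), and its nearest neighbour, Smc1a-bound and 9255 bp away, had a log2 difference of -0.027. The member at chr6:71727432-71730390 held 2532 and 2958 called bp (WT) against 691 and 820 bp (KO), with a neighbour at -0.74. The member at chr1:178862697-178865674 held 2978 and 2609 called bp (WT) against 1340 and 1181 bp (KO). The last, chr7:121442258-121445995, held 2972 and 3048 called bp (WT) against 1400 and 1353 bp (KO). Over all 6, the best score ran from 107 to 530 in WT libraries and from 63.8 to 210 in KO libraries. Nearest neighbours of all 6 had a log2 difference below 0, from -1.42 to -0.014. The values of -0.014 and -0.027 were close to 0, and the median over all members was -0.015. These signs were not compared with those of the neighbours of all members.

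The 6 with more covered length in KO began with chr5:30654847-30658451. It held 1346 and 1439 called bp (WT) against 3498 and 3025 bp (KO), a log2 difference of 1.25 (SE 0.12) or 2.38-fold more (limma with Benjamini-Hochberg adjustment, adjusted p = 0.150). Its best peak scored 110 and 160 in WT and 767 and 638 in KO, on the authors' scale. Its nearest neighbour, Smc1a-bound and 7788 bp away, had a log2 difference of 1.09. The member at chr2:77101312-77105096 held 1657 and 1941 called bp (WT) against 3785 and 3225 bp (KO), and its Smc1a-bound neighbour 825 bp away was at 0.76.

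The member at chr4:154568260-154571668 held 1234 and 1200 called bp (WT) against 3033 and 2131 bp (KO). The member at chr17:21608951-21611401 held 1410 and 1305 called bp (WT) against 2293 and 2451 bp (KO), and the nearest Smc1a peak was 29923 bp away. The remaining 2 of the 6 lie on chromosome 18 and were covered over 1534 and 1398 bp in WT against 2952 and 2551 bp in KO, and over 1164 and 986 bp in WT against 2029 and 2298 bp in KO. The chromosome 17 member and the first of these 2 had no Smc1a-bound region in reach, and the others of the 6 did. Of the 6 nearest neighbours, 5 had a log2 difference above 0 and 1 was at -0.12. This count was also not compared with the neighbours of all members. Adjusted p over these 12 members ran from 0.150 to 0.213.

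**Figure D5:**
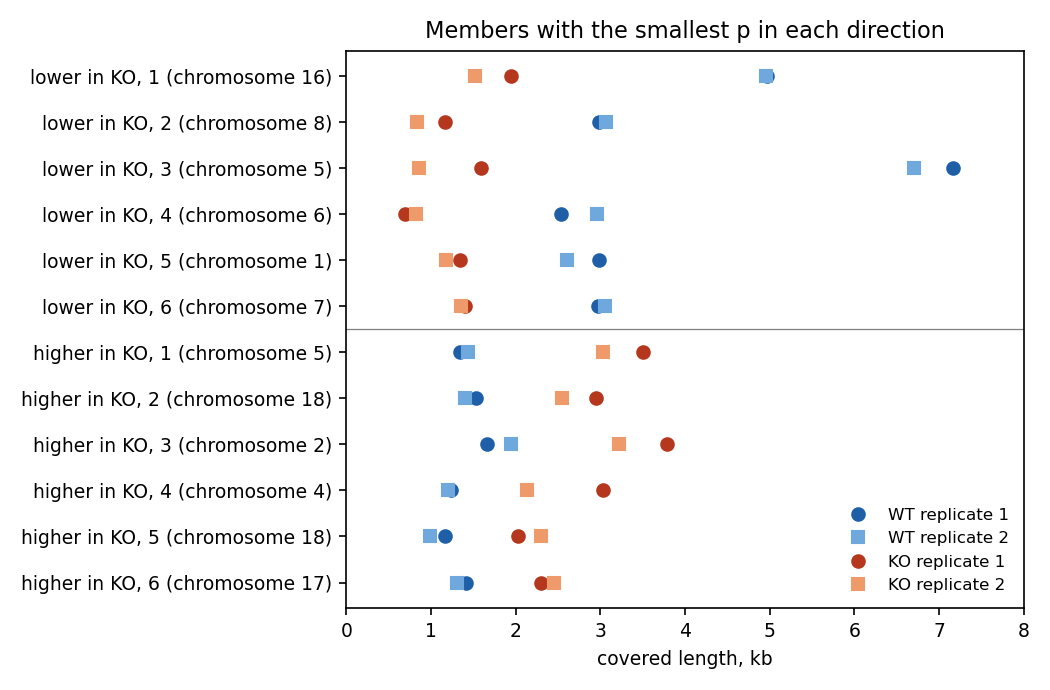
Covered length in kb (horizontal axis) of the 6 members with the smallest p in each direction, as points for the 2 WT and 2 KO libraries. WT and KO points do not overlap in any of the 12, by the way they were chosen, and the third member from the top spans the widest range, from 7170 bp in WT replicate 1 to 852 bp in KO replicate 2.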

How the data were processed

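Peak lists of 4 H3K27ac and 2 Smc1a libraries were used, and the 5 input libraries were not analysed here. Reads were aligned with Bowtie 0.12.8 to mm9, per the submitters' processing notes. Names of peaks begin with MACS in the deposited lists, and each list is 1 library. Version, settings and inputs of the caller were not given in the sources used here. Each peak's score is the authors' own value and served to rank peaks inside a list, to filter them or to be quoted as it stands. Covered length depends on where the caller placed a peak's ends, and so on depth, which is unknown.

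Members and lists were chosen with earlier results of these data known. Regions named are the 5 runs with most members, the 6 members with the smallest limma p in each direction, since none passed, and those beside each limit. Planned gene lists and sequences were not used here, because no mm9 genome or annotation was used. Analyses by neighbour number, gap, edge, Smc1a distance and adjacent pairs, and counts of non-overlapping libraries, were chosen after seeing the data. Two-sided exact permutation tests compared libraries, and regions were compared with limma 3.58.1 in R 4.3.3. Scripts used Python 3.11.15, numpy 2.4.6, pandas 2.3.3 and matplotlib 3.10.9, and were tested on simulated data. Coordinates count from 1.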

Additional observations from a re-analysis of the deposited data

How the results depend on the processing

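For 13 results 151 alternatives were run, and 133 left the result on its side of the threshold with its direction, or a count within 1.5 times. Where the test was a permutation over libraries no p could pass 0.05, so only a turn of direction could show there. The tally is therefore no measure of how firm those results are. The number of members was 1878 with neighbours within 5000 bp, since the rule is then narrower, and 2225 to 4452 otherwise. Leaving out 1 library at a time, the difference in covered length ran from -0.924 to 0.0521 Mb and the difference in members of several peaks from -0.445 to 1.90 points; both turned without KO replicate 2, and the cause was not tested. Members called by limma numbered 0 to 18 in these fits, with 18 only where a WT library was left out, and 0 in all other fits. The 5 class differences kept their direction under every alternative run. Members with WT above KO numbered 1119 to 1194 (36.9% to 39.4%) and with KO above WT 846 to 1145 (27.9% to 37.8%) when 1 library was left out, since fewer libraries then had to be apart, against 33.5% to 39.6% and 28.4% to 41.3% of all shared regions. Without KO replicate 1 the order turned, with 1132 against 1145; with neighbours within 5000 bp they were 436 and 329. With the replicate number as a replicate block, 0 members were called and covered length differed by -0.436 Mb (exact sign-flip permutation test, p = 0.5); the smallest p of 2 pairs is that value. Same-numbered libraries had deviations with r = 0.0998 over members; with 2 pairs, and labels that tie no number to a litter or batch, pairing could not be established. The depth behind each call is unknown, and a shorter call is not a measured loss of acetylation.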

Other observations

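The 2583 gaps beside members, 1100 of them between members, spanned 11.9 Mb in all. In 409 of these gaps (15.8%) lay a region called in some but not all of the 4 H3K27ac lists, and in 292 (11.3%) lay a Smc1a peak. A WT-only region, with calls of the 2 WT lists and of no KO list, lay in 28 gaps, and a KO-only region in 24. Gaps with any H3K27ac call numbered 282 in WT replicate 1, 134 in WT replicate 2, 174 in KO replicate 1 and 160 in KO replicate 2. The KO libraries lay between the WT libraries (KO minus WT difference of -41 gaps, two-sided exact permutation test over 2 against 2 libraries, p = 1). The called length in gaps was 539.3 kb in WT replicate 1, 247.1 kb in WT replicate 2, 293.6 kb in KO replicate 1 and 225.0 kb in KO replicate 2, so by length KO replicate 2 was lowest (exact permutation test, p = 0.667). By number of gaps the order of the libraries was that of the length they called outside shared regions, which was 13.8 Mb in WT replicate 1, 4.08 Mb in WT replicate 2, 10.6 Mb in KO replicate 1 and 9.61 Mb in KO replicate 2.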
